A study of Homo sapiens with 24 samples.

Results

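The resting transcriptome described here is that of vehicle-treated 22Rv1 cells, taken from the 3 libraries labelled DMSO at the 3 h time point, which are 3 of the 24 samples of the series and 3 of the 9 libraries in the deposited table. Its members are all 60232 genes of that table, with no selection on their values and no comparison with a treated group. 22Rv1 is an established human prostate carcinoma cell line, and the labels name no genetic change made to it. The study as a whole asked how small molecules act in these cells. In the same table, cells received KB02 or KB05 at 200 µM for 1 h followed by 2 h without compound, and vehicle cells carry the same 3 h time point. No source used here gives the time in vehicle or says whether the vehicle cells had a change of medium. The labels describe biological triplicates of a single line grown under standard conditions. The spread between libraries is therefore that of cultures of 1 line together with library preparation and sequencing, which cannot be told apart.

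The prostate gland is lined by luminal epithelial cells that depend on androgens, together with transcription factors such as FOXA1 and HOXB13. Luminal cells secrete kallikrein proteases, among them the prostate-specific antigen encoded by KLK3, and basal cells beneath them carry TP63 and KRT5. 22Rv1 was derived from a xenograft of a prostate carcinoma that relapsed after castration. Carcinoma lines can also transcribe genes whose normal expression belongs to other tissues, such as the cancer-testis genes of the germ line.

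Levels are given as CPM, estimated counts per 1000000 of the scaled library total, and as RPKM, which is CPM divided by the length of the merged exons in kilobases. CPM says how many counts a gene took, which grows with its length, so transcript levels of different genes are compared only as RPKM. A run of 3 values stands for replicates 1, 2 and 3, and a value with ± is the mean with its SD over these 3 libraries. A gene was called expressed at 1 CPM or more in all 3 libraries, abundant at 100 CPM or more in all 3, and silent at 3 counts or fewer in every library. Total counts were 19268143, 19830410 and 17565251. A count of 3 corresponded to 0.153, 0.149 and 0.176 CPM, and these floors cover counting error only. Between each pair of libraries, 94.3% to 95.9% of expressed genes agreed within 1.5-fold, and the chi-square per degree of freedom of 4.87 to 8.70 exceeded sampling noise in all 3 pairs.

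Of the 60232 genes, 29389 had a count in at least 1 library, 14563 were expressed and 37851 were silent. Among 19836 protein-coding genes, 12683 or 63.9% were expressed, 1612 of them abundantly, and 4125 were silent. These numbers are the background for the counts of expressed and abundant genes in each list below. The median expressed protein-coding gene stood at 22.7 CPM. Long non-coding RNA genes were mostly off, with 1262 of 14772 or 8.54% expressed. Counts were concentrated on few transcripts: the 10 most abundant genes took 16.4 ± 0.887% of all counts and the 100 most abundant took 31.8 ± 1.04%. All of the first 10 were encoded by the mitochondrial genome, which gave 17.8 ± 0.955% of counts in total, and the other genes therefore share the remainder.

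MT-CO1, a catalytic subunit of cytochrome c oxidase, was the most abundant transcript on both scales at 43841, 41459.6 and 47444 CPM and 28695 ± 1954 RPKM. Among nuclear genes, GAPDH, the glycolytic dehydrogenase, took the most counts on average, at 4723, 5239.5 and 5875 CPM. The translation elongation factor EEF1A1 came next in counts at 5147, 4913 and 4896 CPM. The following places in counts belonged to genes of secretion. CLU, which encodes the secreted chaperone clusterin, was at 3901, 4212 and 4547 CPM. VGF, a neuropeptide precursor that endocrine and nerve cells store in secretory granules, was at 3637, 4279 and 4535 CPM. These 2 genes took about as many counts, with overlapping ranges. Per kilobase, VGF (1535 ± 171 RPKM) ranked above the cytoskeletal actin gene ACTB (1059.7 ± 68.2 RPKM), and CLU (638 ± 48.8 RPKM) ranked below it. The nuclear genes above VGF per kilobase were TMSB10, which encodes a short actin-binding peptide, at 6605 ± 644 RPKM, the ribosomal protein gene RPL41 at 2276 ± 134 RPKM, the non-coding gene ENSG00000280800 at 2232 ± 305 RPKM, the pseudogene MTATP6P1 at 1873 ± 168 RPKM and GAPDH at 1771 ± 194 RPKM.

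Chaperones and folding enzymes of the endoplasmic reticulum also took many counts: CALR at 3237 ± 111 CPM, HSP90B1 at 2421 ± 90 CPM, HSPA5 at 2214 ± 172 CPM and the prolyl isomerase PPIB at 2006 ± 108 CPM. MDK, a secreted heparin-binding growth factor, was at 1980.4, 2118 and 2321 CPM, and BSG, a membrane glycoprotein that escorts lactate transporters, at 2203, 2282 and 2482 CPM. MTATP6P1 on chromosome 1 is a nuclear copy of mitochondrial sequence, so its reads cannot be told apart with certainty from those of MT-ATP6 and its level is uncertain. ENSG00000280800, an unnamed gene on chromosome 21, stood at 1954, 1846 and 2379 CPM, the most counts of all genes annotated as long non-coding. Which RNA its reads came from was not tested, so its level as a long non-coding RNA is uncertain. In order of counts, the next were SNHG29 at 757 ± 8.81 CPM, GAS5 at 350.4 ± 11.7 CPM, MALAT1 at 319.6 ± 39.9 CPM and the unnamed gene ENSG00000283907 on chromosome 19 at 293 ± 21.1 CPM. They were followed by SNHG5 at 226 ± 1.87 CPM, TUBA1B-AS1 at 147 ± 25.3 CPM, TUG1 at 137 ± 1.95 CPM, DANCR at 133 ± 2.48 CPM and SNHG6 at 117 ± 5.13 CPM. Exons of TUBA1B-AS1 lie largely under those of the tubulin gene TUBA1B, so its level is uncertain. SNHG29, GAS5 and SNHG5 host small nucleolar RNAs in their introns.

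The transcription factors of the luminal prostate lineage were all on. All 16 of the list were expressed, against 63.9% of protein-coding genes, and 7 were abundant. FOXA1 (ENSG00000129514.8, chromosome 14 at 37589984 to 37596059, GRCh38), a pioneer factor that opens chromatin, was at 209, 189 and 181 CPM. HOXB13, a homeobox factor of the prostate, was at 148, 161 and 167 CPM. SPDEF, an ETS factor of secretory epithelia, was at 135, 158 and 168 CPM, ELF3, an epithelial ETS factor, at 145, 161 and 159 CPM, and CREB3L4, a membrane-bound factor abundant in prostate, at 163, 158 and 181 CPM. Per kilobase the order was SPDEF (80.3 ± 8.78 RPKM), CREB3L4 (57.6 ± 4.08 RPKM), FOXA1 (48.5 ± 3.58 RPKM) and HOXB13 (45.7 ± 2.83 RPKM). FOXA1 and HOXB13 overlapped in range, and the others did not. GATA2 at 98 ± 5.65 CPM and GATA3 at 32.9 ± 0.186 CPM were both on, GRHL2, a keeper of epithelial identity, was at 42 ± 1.38 CPM, and PAX2, at 3.22 ± 0.67 CPM, was the lowest of the list per kilobase.

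**Figure D1:**
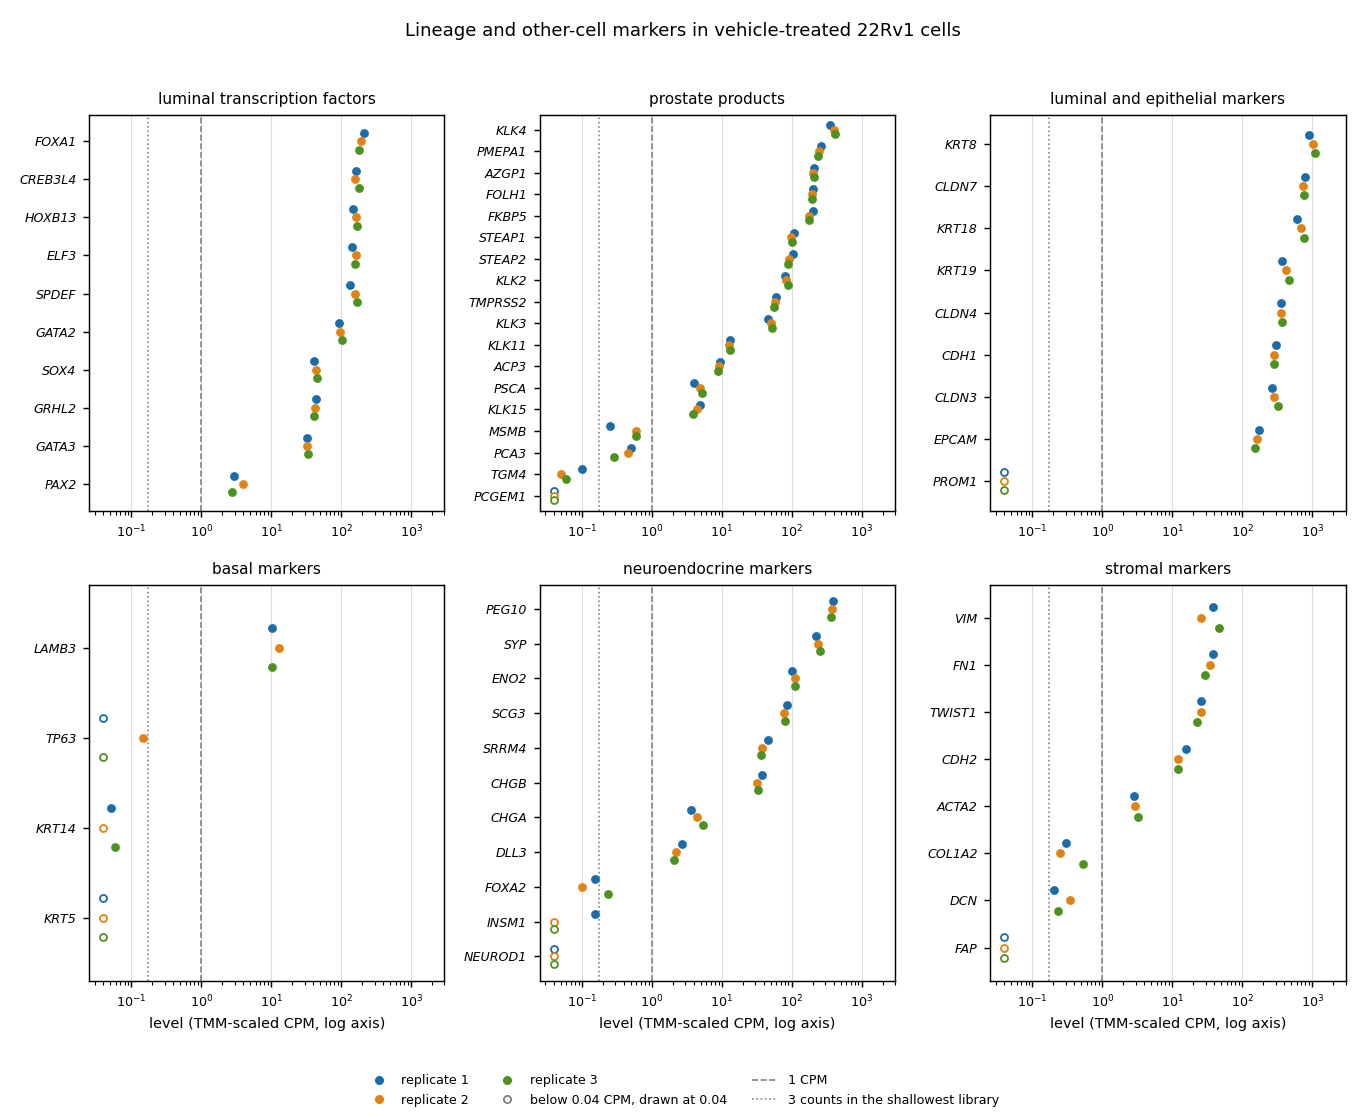
Levels of the lineage markers and markers of other cells that the text names in the 3 vehicle libraries, as TMM-scaled CPM on a log axis, 1 point per library, with genes ordered by mean. PAX2 lies at 2.75 CPM or more in every library, whereas KRT5 and NEUROD1 are at 0.

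Of prostate products, 21 of 30 genes or 70% were expressed, close to the 63.9% of protein-coding genes, and the levels ranged widely. KLK4, a kallikrein protease of prostate and tooth enamel, was at 359, 397 and 416 CPM and led per kilobase. AZGP1, a secreted zinc-binding glycoprotein, was at 208, 203 and 209 CPM and FOLH1, which encodes prostate-specific membrane antigen, at 201, 193 and 198 CPM. FKBP5, a co-chaperone and androgen target, was at 199, 175 and 176 CPM and PMEPA1, an androgen-induced regulator of TGF-beta signalling, at 262, 249 and 238 CPM. By contrast ACP3, prostatic acid phosphatase, was at only 9.4, 9.11 and 8.79 CPM. MSMB, one of the main proteins of seminal plasma, had 5, 12 and 10 counts, and TGM4, the prostate transglutaminase, had 2, 1 and 1. The non-coding RNA PCGEM1 had 0 counts in all 3 libraries, and PCA3, a non-coding marker of prostate cancer, had 10, 9 and 5.

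The 3 kallikreins of the prostate differed widely in level per kilobase. KLK4 was at 202 ± 15 RPKM, KLK2 at 13.2 ± 0.544 RPKM and KLK3 at 10.7 ± 0.757 RPKM, with no overlap of ranges between neighbours. In CPM, KLK2 was at 80.9, 83.5 and 87.8 CPM and KLK3, prostate-specific antigen, at 45.6, 50.9 and 52.3 CPM. The ratio of KLK4 to KLK3 per kilobase was 18.9 ± 0.193 and that of KLK2 to KLK3 was 1.23 ± 0.0497. With median transcript length they were 11.5 and 2.06, in the same order. KLK1, tissue kallikrein, was also on at 67, 68.2 and 77.1 CPM, or 29.8 ± 2.31 RPKM. KLK11 and KLK15 were the only other expressed members of 15, at 13.1 ± 0.223 CPM and 4.4 ± 0.547 CPM, so that 6 members were used. KLK4 alone made up 76.9 ± 0.765% of the family's level per kilobase. KLK7 and KLK9, proteases of skin, had 0 counts. KLK2 and KLK3 are similar in sequence, so the division of reads between them is an estimate.

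The windows of 250 bases upstream of these 3 genes are shown because the genes lie near each other on chromosome 19 and differ in level. They come from RefSeq on GRCh38.p14 and run 5′ to 3′ on the strand of the gene: KLK2 at chr19:50873189-50873438 on the plus strand, KLK3 at chr19:50854665-50854914 on the plus strand and KLK4 at chr19:50910739-50910988 on the minus strand. Capitals mark matches on either strand to AGAACA, the letters of a single arm of the element that dimers of steroid hormone receptors bind.
KLK2: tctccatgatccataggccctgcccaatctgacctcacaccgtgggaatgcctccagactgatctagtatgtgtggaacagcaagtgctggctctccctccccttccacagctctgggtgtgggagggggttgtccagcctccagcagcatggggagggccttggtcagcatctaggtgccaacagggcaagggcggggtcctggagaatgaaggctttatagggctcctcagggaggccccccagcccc
KLK3: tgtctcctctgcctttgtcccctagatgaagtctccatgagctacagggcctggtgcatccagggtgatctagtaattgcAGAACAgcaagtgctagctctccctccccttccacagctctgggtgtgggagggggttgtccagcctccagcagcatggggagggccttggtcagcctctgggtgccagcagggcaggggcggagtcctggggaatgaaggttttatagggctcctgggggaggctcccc
KLK4: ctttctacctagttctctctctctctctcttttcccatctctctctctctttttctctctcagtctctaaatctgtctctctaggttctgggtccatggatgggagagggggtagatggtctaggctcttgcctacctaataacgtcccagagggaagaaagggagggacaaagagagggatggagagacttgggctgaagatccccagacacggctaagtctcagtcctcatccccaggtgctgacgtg
Only the KLK3 window holds a match, from 170 to 165 bases before the start, and 12.4% of all 35116 windows of this length hold one. The KLK2 and KLK3 windows share a run of 80 bases that is letter for letter the same, from 160 to 81 bases before the KLK2 start, and the match of KLK3 lies outside it. With the KLK4 window, that of the gene with the highest transcript level of the 3, the longest shared run of either was at most 8 bases. A match is a description of these letters and says nothing of binding.

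Epithelial structure genes were mostly on. Of 18 luminal and general epithelial markers, 17 or 94.4% were expressed, beside 63.9% of protein-coding genes, and 9 were abundant. The simple-epithelial keratins KRT8 and KRT18, which pair into filaments, were at 909, 1045 and 1114 CPM and 615, 697 and 766 CPM, and KRT19 was at 369.7, 426 and 471 CPM. All 3 were lowest in replicate 1 and highest in replicate 3. EPCAM, an epithelial adhesion molecule, was at 173, 164 and 152 CPM and CDH1, E-cadherin, at 305, 286 and 289.8 CPM. The stem-cell marker PROM1 had 0 counts. In the keratin family only 6 of 25 members were expressed. KRT18 (215 ± 23.5 RPKM), KRT19 (181 ± 21.6 RPKM) and KRT8 (149 ± 15.2 RPKM) overlapped with their neighbours in range, and KRT8 became the highest with either alternative transcript length. KRT7 followed at 56.1 ± 6.74 CPM. KRT1, KRT3, KRT5, KRT6B, KRT6C, KRT12 and KRT24 were at 0.

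Of 21 claudins, which seal tight junctions, 8 were expressed, and CLDN7, CLDN3 and CLDN4 were at 305 ± 7.1 RPKM, 229 ± 22.3 RPKM and 77.4 ± 1.23 RPKM, with no overlap between them. CLDN11, better known from myelin and testis, was on at 39.5, 40 and 36.7 CPM. CLDN17, CLDN18, CLDN19 and CLDN22 were at 0. Among 22 cadherins, 9 were expressed. CDH1 stood at 47.5 ± 1.61 RPKM, followed by CDH24 at 14.9 ± 0.568 RPKM and P-cadherin, CDH3, at 14.7 ± 0.498 RPKM, which overlapped. The ratio of CDH1 to CDH3 per kilobase was 3.23 ± 0.143, but 0.793 with median transcript length, so their order depends on the length used. N-cadherin, CDH2, was expressed at 15.6, 12.2 and 12.2 CPM. Of 26 integrin chains 17 or 65.4% were expressed, close to the 63.9% of protein-coding genes, led per kilobase by ITGB5 at 44.5 ± 2.76 RPKM and ITGB1 at 31.9 ± 6.44 RPKM. ITGB1 was at 236, 177 and 163 CPM, highest in replicate 1.

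Basal markers were low, and the defining ones were at or near 0. Of 11 genes, 4 were expressed, with summed levels of 17.2, 22.6 and 18.2 CPM. KRT5 had 0 counts, TP63, the defining basal factor, had 0, 3 and 0, and KRT14 had 1, 0 and 1. LAMB3, a laminin chain of the basement membrane, was at 10.3, 13 and 10.3 CPM and was the highest per kilobase. In the list of stromal and mesenchymal genes 8 of 18 were expressed, with sums of 143, 126 and 141 CPM. The defining fibroblast genes COL1A2 and DCN had at most 9 counts in a library and FAP had 0, whereas TWIST1, a mesenchymal transcription factor, was at 25.4, 25.8 and 23 CPM, or 12.2 ± 0.76 RPKM. VIM, vimentin, was at 38.9, 25.6 and 47.4 CPM, and FN1, fibronectin, at 38, 34.5 and 29.9 CPM. Of 8 endothelial genes 1, EGFL7, was expressed at 6.34, 7.17 and 7.27 CPM, and VWF, CDH5, KDR and TEK were at 0.

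Of 16 neuroendocrine genes, 10 or 62.5% were expressed, close to the 63.9% of protein-coding genes, and 3 abundant, with sums of 896, 889.9 and 892 CPM. PEG10, a retrotransposon-derived gene, was at 387, 374 and 362 CPM and SYP, synaptophysin of synaptic vesicles, at 221, 241 and 252 CPM. ENO2, neuron-specific enolase, was at 101, 112 and 111 CPM, SCG3, a granule protein, at 87.2, 78.6 and 80.2 CPM, and SRRM4, a neural splicing factor, at 46.5, 38.1 and 36.6 CPM. The master regulator NEUROD1 was at 0, INSM1 had 3, 0 and 0 counts, and CHGA, chromogranin A, was at 3.68, 4.43 and 5.33 CPM. CHGB was higher per kilobase (7.62 ± 0.668 RPKM) than CHGA (1.44 ± 0.267 RPKM). VGF, described above, belongs to the same class of granule proteins but was not on this list.

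Genes of blood leukocytes and of melanocytes were detected at levels that differed between libraries. In bulk RNA, few cells of a type and little RNA per cell cannot be told apart. Of 12 leukocyte markers 4 were expressed, with summed levels of 26.8, 27.2 and 36.7 CPM. PTPRC, the pan-leukocyte phosphatase CD45, was at 11.1, 12.1 and 17.9 CPM and NKG7, a granule protein of cytotoxic lymphocytes, at 8.12, 8.67 and 11.1 CPM. The B-cell gene MS4A1 had 0, 2 and 0 counts and CD3D had 1, 3 and 3. After these values had been seen, 30 genes of T cells and natural killer cells were looked up, with summed levels of 247, 349 and 431 CPM. These sums include IFNG, at 5.46, 98.6 and 90.2 CPM, so their rise from replicate 1 to replicate 2 is largely that of 1 gene. GZMB, which encodes granzyme B, was at 34.6, 34.5 and 45.3 CPM, GNLY, granulysin, at 26.7, 25.9 and 32.5 CPM, PRF1, perforin, at 10.2, 8.86 and 12.1 CPM, and the T-cell receptor chain genes CD247 and TRBC2 at 5.87, 4.83 and 8.32 CPM and 2.76, 2.32 and 3.86 CPM. Of the 27 such genes with 10 or more counts in a library, 19 were highest in replicate 3, while 12 were lowest in replicate 1 and 15 in replicate 2. This is a description, since the set holds genes whose order had been seen. The share of all expressed genes that were highest in replicate 3 is not given here. KRT8, KRT18 and KRT19 were highest there too, and whether the count is particular to lymphocyte genes was not tested.

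IFNG, which encodes interferon gamma, stood apart within the lymphocyte genes at 5.46, 98.6 and 90.2 CPM, from 107, 1979 and 1539 counts. It was thus low in replicate 1 and high in the other 2 libraries, while GZMB and GNLY differed by less than 1 CPM between replicates 1 and 2. Of the chains that define T cells, CD3E had 14, 8 and 12 counts, CD3G had 0, 5 and 0, CD8A had 12, 18 and 12, and CD8B had at most 1 in a library. Melanocyte genes had another order. PMEL, a melanosome protein, was at 42, 21.8 and 45.2 CPM, TYRP1, a pigment enzyme, at 9.7, 4.03 and 9.14 CPM, MITF, the melanocyte master factor, at 4.8, 3.24 and 5.92 CPM, SOX10 at 3.22, 2.29 and 4.34 CPM and MLANA at 1.58, 0.548 and 1.76 CPM. Each was lowest in replicate 2. TYRP1 was looked up after the order of the others had been seen. VIM, above, was likewise lowest in replicate 2 and highest in replicate 3. S100B, a marker of melanocytes and nerve, had 0, 0 and 3 counts. Whether the leukocyte and melanocyte transcripts came from 22Rv1 cells was not tested.

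**Figure D2:**
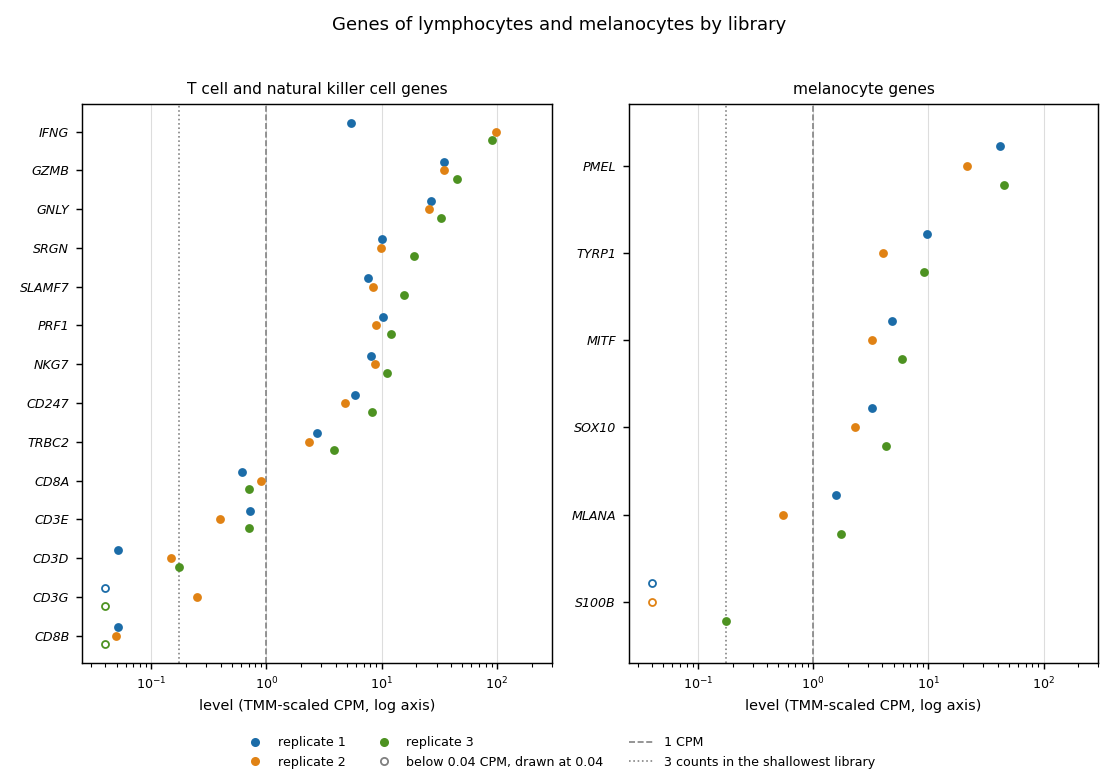
Levels of the named lymphocyte and melanocyte genes by library, as TMM-scaled CPM on a log axis, both sets chosen after the levels had been seen. IFNG is at 5.46 CPM in replicate 1 against 98.6 and 90.2 CPM in the others, and PMEL is at 21.8 CPM in replicate 2 against 42 and 45.2 CPM.

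Of 29 tumour suppressors and oncogenes of prostate cancer, 28 or 96.6% were expressed, beside 63.9% of protein-coding genes. RB1, the gatekeeper of the G1 phase, was at 16, 15.4 and 17.1 CPM. CDKN1B, the cyclin kinase inhibitor p27, was the highest per kilobase at 68.8 ± 2.15 RPKM, and CDKN2A, the locus of p16 and ARF, was on at 60.8, 68.2 and 64.7 CPM. MYC was at 152, 129.9 and 131 CPM. BRCA1 was at 32.8, 28.6 and 28.9 CPM. TERC, the RNA component of telomerase, was the only member not called expressed, with 0, 0 and 4 counts. These counts say how little of it was detected in these libraries and do not show that the gene was off. Expression per gene says nothing of mutations in the transcripts. Of 21 surface proteins studied as targets in prostate cancer, 18 or 85.7% were expressed, beside the same 63.9%. CD46, a complement regulator, was at 273, 224 and 231 CPM, PVR, the poliovirus receptor, at 178, 169 and 169 CPM, STEAP1, a metalloreductase of prostate, at 108, 99 and 101 CPM and STEAP2 at 105, 93 and 89.9 CPM. Per kilobase EPCAM (64.6 ± 4.21 RPKM) and STEAP1 (63.1 ± 2.72 RPKM) overlapped and FOLH1 (51.6 ± 1.03 RPKM) lay below both. PSCA, prostate stem cell antigen, was at 3.98, 4.88 and 5.21 CPM and DLL3, a Notch ligand of neuroendocrine tumours, at 2.71, 2.19 and 2.11 CPM.

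HOX genes, which lie in 4 clusters and record position along the body axis, differed in use between clusters. Over the 4 clusters, 26 of 39 genes or 66.7% were expressed, close to the 63.9% of protein-coding genes. In HOXC all 9 genes were expressed, in HOXA 9 of 11, in HOXB 8 of 10 and in HOXD 0 of 9. The summed level of the HOXD genes was 0.715, 0.847 and 0.469 CPM, and HOXD1, HOXD3, HOXD4, HOXD10 and HOXD12 had 0 counts. The corresponding sums were 58.2, 58.6 and 55.8 CPM for HOXA, 220.5, 234 and 241 CPM for HOXB, and 123, 131 and 132 CPM for HOXC. HOXB13, set apart from the rest of its cluster in the genome, was the highest of the family at 45.7 ± 2.83 RPKM. The next genes, HOXC10 (11.3 ± 0.566 RPKM), HOXA5 (10.4 ± 0.614 RPKM) and HOXC12 (10 ± 0.86 RPKM), overlapped with their neighbours. The ratio of HOXB13 to HOXC10 per kilobase was 4.03 ± 0.104, and 1.38 with median transcript length. Within HOXA the 3′ member HOXA2 was low at 0.87 ± 0.107 CPM, or 0.354 ± 0.0434 RPKM. HOXA13 at the other end was on at 6.7 ± 0.784 CPM, or 1.32 ± 0.154 RPKM. HOXA5, between them, was higher than both at 10.4 ± 0.614 RPKM, so levels did not rise steadily along the cluster. Exons of HOXA7 and HOXC5 are covered by more than 50% by other transcribed genes, so with strand not given their levels are uncertain.

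**Figure D3:**
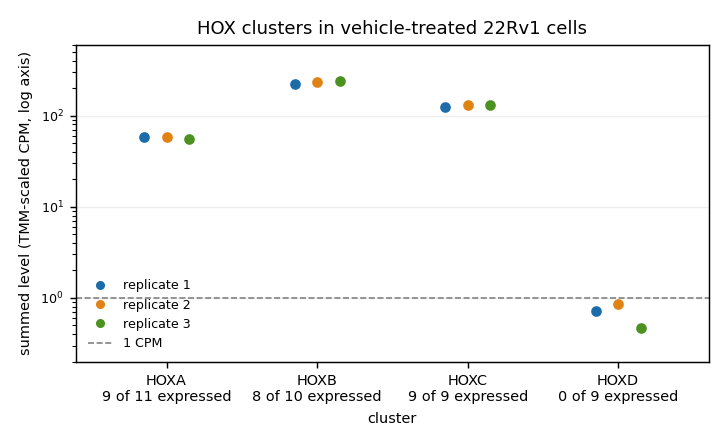
Summed level of the HOX genes of each cluster in the 3 vehicle libraries, as TMM-scaled CPM on a log axis, 1 point per library. HOXD stays below 1 CPM in each library, and the other clusters lie between 55.8 and 241 CPM.

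Among 48 nuclear receptors, 32 or 66.7% were expressed, close to the 63.9% of protein-coding genes. The highest per kilobase were the orphan receptors ESRRA (46.3 ± 2.39 RPKM) and NR2F6 (45.9 ± 1.67 RPKM), which overlapped, followed by the oxysterol receptor NR1H2 (24.5 ± 2.44 RPKM). The glucocorticoid receptor NR3C1 was at 10.4, 9.56 and 13 CPM. The mineralocorticoid receptor NR3C2 was at 4.54 ± 0.267 CPM. The estrogen receptors ESR1 and ESR2 had 0, 1 and 1 and 8, 13 and 8 counts, and the progesterone receptor PGR had 0.

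Of 28 ETS factors 22 or 78.6% were expressed, beside 63.9% of protein-coding genes. SPDEF was the highest per kilobase at 80.3 ± 8.78 RPKM, followed by ELF3 (21.5 ± 1.24 RPKM) and ERF (21.1 ± 0.995 RPKM), which overlapped, and ELF3 became the highest with median transcript length. ERG, the ETS factor most often fused to TMPRSS2 in prostate cancer, was at 0, and FLI1 was at 0.981 ± 0.219 CPM, while ETV1 and ETV4 were at 11.2, 9.91 and 11.8 CPM and 10.8, 11.5 and 13.7 CPM. FEV, an ETS factor of serotonin neurons, was on at 11.4, 11.3 and 14.2 CPM. GATA2, GATA3 and SOX4 led the 25 GATA and SOX factors, of which 11 were expressed, at 22 ± 1.27 RPKM, 9.59 ± 0.0542 RPKM and 7.38 ± 0.352 RPKM. GATA1, the red cell factor, had 0, 0 and 1 counts, GATA4 had 1, 1 and 0, and SOX1, SOX3, SOX14 and SOX17 were at 0.

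Genes for the first steps from cholesterol to androgens were at or near 0, and several that convert existing steroids were on. Of 27 enzymes 12 were expressed. CYP11A1 and CYP17A1, which carry out the side-chain cleavage and hydroxylation steps, had 0 counts, and STAR, which delivers cholesterol to mitochondria, had 8, 5 and 3. Outside these first steps, CYP11B1 and CYP11B2 also had 0 counts. AKR1C3, which makes testosterone from androstenedione, was at 41.9, 42.4 and 44.1 CPM. HSD17B4, a peroxisomal enzyme, was at 130.3, 127 and 127 CPM and HSD11B2, which inactivates cortisol, at 39.9, 39.3 and 42.9 CPM. HSD17B10, a mitochondrial dehydrogenase of broad substrate range, was the highest per kilobase at 152 ± 10.1 RPKM. Of the genes named for 5-alpha-reductases, SRD5A3 was at 19.4 ± 0.957 RPKM and SRD5A1 at 2.73 ± 0.279 RPKM. SRD5A2, the form of normal prostate, had 0, 1 and 0 counts. Transcript levels say nothing of which of them acts on androgens.

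UDP-glucuronosyltransferases, which mark steroids and drugs for excretion, were led by UGT2B15, an enzyme that inactivates dihydrotestosterone, at 65.3, 61.4 and 61 CPM or 30.1 ± 1.15 RPKM. In all, 8 of the 20 genes found were expressed, and UGT8, which makes galactosylceramide, came next at 8.38 ± 1.11 RPKM. UGT1A1 was at 18.5, 16.7 and 17.6 CPM, but the UGT1A genes share exons and the division of their reads is uncertain. Of 56 cytochrome P450 genes 16 were expressed. CYP1A1, an oxidase of polycyclic aromatic compounds, was at 856, 936 and 928 CPM, or 264 ± 12.9 RPKM, and held 67.9 ± 2.84% of the family's level per kilobase. Its relatives CYP1A2, in normal tissue a liver enzyme, and CYP1B1 were at 55, 52.4 and 54.1 CPM and 72.2, 83.3 and 73.4 CPM. CYP51A1, the demethylase of sterol synthesis, was at 290.1, 228 and 230.0 CPM. The liver drug enzymes CYP2A6, CYP2B6 and CYP3A4 had 0 counts.

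Each step of glycolysis had at least 1 abundant gene. Of 27 genes 20 were expressed and 14 abundant. HK1 (158, 163 and 172 CPM) and HK2 (45.8, 39.4 and 33.7 CPM) were both on, with a ratio per kilobase of 4.07 ± 0.8, or 30 with median transcript length. HK3 was at 0. PFKL (25.2 ± 2.22 RPKM) and PFKM (22.6 ± 0.969 RPKM) stood at a ratio of 1.12 ± 0.0525 per kilobase, and at 0.358 with median transcript length, so their order is not settled. GPI was at 493 ± 28.5 CPM and TPI1 at 1167 ± 66.8 CPM. ALDOA and ENO1 were at 1068 ± 112 CPM and 1029 ± 64.1 CPM. PKM was at 719.7 ± 63.5 CPM, and PKLR, the liver and red cell pyruvate kinase, had 1, 0 and 1 counts.

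LDHB, the heart-type subunit of lactate dehydrogenase, was higher per kilobase than LDHA, the muscle-type subunit. LDHB was at 869.9, 969 and 963 CPM and LDHA at 437, 417 and 406 CPM, and per kilobase LDHB was 4.64 ± 0.435 times LDHA in the 3 libraries and 2.35 times with median transcript length. PGAM2, the muscle form of phosphoglycerate mutase, was at 107 ± 13.6 RPKM beside PGAM1 at 78.7 ± 9.85 RPKM. All exons of PGAM2 lie under exons of the expressed gene DBNL, so this level is uncertain and it does not show that PGAM2 was used. SLC2A1, at 110.2, 111 and 113 CPM, was the glucose transporter with the highest level per kilobase, with 9 of 14 family members or 64.3% expressed, close to the 63.9% of protein-coding genes. SLC2A3 was at 1.37, 2.09 and 3.69 CPM, and SLC2A2, the liver transporter, had 1, 0 and 0 counts.

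**Figure D4:**
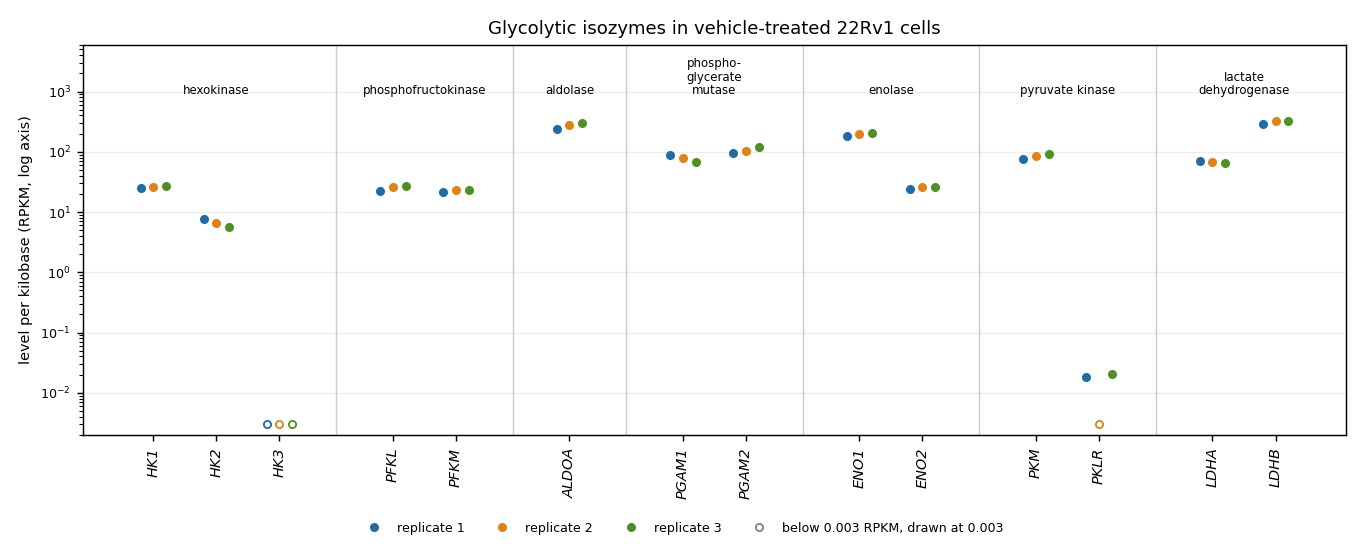
Levels per kilobase (RPKM, log axis) of the named isozymes of 7 glycolytic steps in each vehicle library. LDHB lies above LDHA in each library, and HK3 is at 0; open points are values below 0.003 RPKM.

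Several tissue-restricted paralogs of broadly expressed genes were on. EEF1A2, the elongation factor of muscle and neurons, was at 326, 390.0 and 398 CPM, and EEF1A1 exceeded it 11.2 ± 1.59-fold per kilobase, or 5.31-fold with median transcript length. CKB, the brain-type creatine kinase, was at 1063, 1218 and 1217 CPM, while CKM, its muscle counterpart, had 0, 2 and 3 counts. The mitochondrial creatine kinases CKMT1A and CKMT1B were at 183 ± 11.8 CPM and 207 ± 10.9 CPM, near-identical genes whose reads are split by estimate. The actins ACTA1 and ACTA2 of muscle were at 0.954 ± 0.315 CPM and 2.98 ± 0.204 CPM. HRAS was at 55.8 ± 3.1 RPKM and NRAS at 7.51 ± 1.44 RPKM, with HRAS above NRAS under each of the 3 length definitions tried. SMARCA4 exceeded SMARCA2 7.17 ± 0.963-fold per kilobase but 1.23-fold with median transcript length. ACTC1, COX4I2, COX6A2, SLC25A31 and PDHA2, forms of muscle, lung or testis, had 0 counts.

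Of 18 genes of polyamine synthesis and citrate metabolism, both prominent in prostate, 16 or 88.9% were expressed, beside 63.9% of protein-coding genes. Among them 8 were abundant. ODC1, the first enzyme of polyamine synthesis, was at 304, 283 and 271 CPM, AMD1 at 217, 185 and 172 CPM and SRM, spermidine synthase, at 152, 162 and 169 CPM. OAZ1, the antizyme that directs ODC1 to degradation, was the highest per kilobase at 251 ± 4.5 RPKM. SAT1, the catabolic acetyltransferase, was at 16.2, 16.6 and 13.2 CPM. On the citrate side, CS, citrate synthase, was at 387, 396 and 396 CPM and SLC25A1, the citrate carrier, at 309, 339.7 and 365 CPM.

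Receptor tyrosine kinases numbered 29 expressed of 54, or 53.7%, beside 63.9% of protein-coding genes. DDR1, a collagen receptor, was at 344, 344 and 343 CPM, with the smallest SD relative to its level among the named receptors, and was the highest per kilobase at 37.7 ± 0.043 RPKM. FGFR3 (29.3 ± 1.73 RPKM), EPHB4 (23.7 ± 1.48 RPKM) and ERBB3 (17.9 ± 0.301 RPKM) followed without overlap. ERBB3, a receptor with little kinase activity of its own, was at 163, 159 and 164 CPM and ERBB2 at 105, 117 and 118 CPM. EGFR was at 19.4, 16.1 and 13.9 CPM and MET, the receptor for hepatocyte growth factor, at 11.9, 10.1 and 10.7 CPM. FLT3, KDR, TEK, ALK, ROR2 and MUSK were at 0. In the WNT family 12 of 29 genes were expressed. The frizzled receptor FZD8, at 71.6, 71.7 and 69.9 CPM, was the highest per kilobase at 17.6 ± 0.249 RPKM. The highest ligand per kilobase was WNT10B at 7.13 ± 0.387 RPKM. Of the ligands first on the list, WNT1, WNT3A and WNT4 had at most 12 counts in a library, WNT2, WNT2B and WNT3 lay at 1.16 ± 0.494 CPM, 1.28 ± 0.655 CPM and 1.01 ± 0.179 CPM, and WNT8A was at 0.

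Genes of class I antigen presentation were on. HLA-B was at 79.6, 78.5 and 113 CPM, HLA-C at 149, 155 and 172 CPM and B2M, their shared light chain, at 405, 346 and 391 CPM. HLA-B and HLA-C were highest in replicate 3, as was PTPRC at 17.9 CPM against 11.1 and 12.1 CPM, whereas B2M was highest in replicate 1. Whether these orders are related was not tested. HLA genes vary between people and are alike, so their split is uncertain. The DNA sensor CGAS and its adaptor STING1, chosen after their values had been seen, had 3, 9 and 6 and 2, 6 and 5 counts, and IFNB1 had 0, whereas IRF3 was at 69.5, 77.9 and 79.2 CPM. DNMT1, the maintenance DNA methyltransferase, was at 133, 139.6 and 144 CPM, DNMT3A at 25.5, 30.3 and 27.4 CPM and DNMT3B at 13.3, 11.7 and 11.2 CPM. TET2 at 14.5 ± 1.88 CPM and TET3 at 17.1 ± 2.21 CPM were expressed among the enzymes that oxidise methylcytosine, and TET1 was at 1.29 ± 0.355 CPM.

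Genes that normally belong to other tissues were on in a minority. Over all such lists, 63 of 246 genes or 25.6% were expressed and 119 were silent, beside 63.9% of protein-coding genes. In the liver list 1 gene dominated. ALB, which encodes serum albumin, was at 849, 841 and 868 CPM, and all other members together came to less than 100 CPM in each library. ALB alone made 87.6 ± 1.39% of the list's level per kilobase. AMBP, the precursor of bikunin, was at 31.9, 35.7 and 42.8 CPM and APOH, a plasma apolipoprotein, at 16.1, 16.4 and 20.6 CPM. TF, transferrin, was at 6.61 ± 0.97 CPM, TTR, transthyretin, at 2.41 ± 0.768 CPM, CYP3A5 at 2.27 ± 0.644 CPM and HPD, a tyrosine-degrading enzyme, at 1.38 ± 0.266 CPM. In all 7 of 38 were expressed and 20 were silent. APOA1 had 4, 9 and 13 counts, APOA2 0, 0 and 2 and APOB 0, 0 and 4, and FGA, F9, TDO2, CYP3A4, G6PC1 and ASGR2 had 0.

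The albumin gene family lies in 1 stretch of chromosome 4, and its members were used very unequally. ALB (ENSG00000163631.17) is annotated on chromosome 4 at 73397114 to 73421412 on GRCh38 and stood at 252 ± 4.05 RPKM. AFP, alpha-fetoprotein, next to it, had 13, 11 and 21 counts, AFM, afamin, had 0, 1 and 0, and GC, the vitamin D binding protein, was expressed at 6.59, 6.32 and 6.33 CPM. The ratio of ALB to GC per kilobase was 93.8 ± 2.89, or 187 with median transcript length. The windows of 250 bases before ALB and AFP are shown because the genes are neighbours with opposite levels. From RefSeq on GRCh38.p14, both on the plus strand, ALB is at chr4:73404037-73404286 and AFP at chr4:73435971-73436220, with capitals for GTTAAT on either strand, a short motif known from liver promoters.
ALB: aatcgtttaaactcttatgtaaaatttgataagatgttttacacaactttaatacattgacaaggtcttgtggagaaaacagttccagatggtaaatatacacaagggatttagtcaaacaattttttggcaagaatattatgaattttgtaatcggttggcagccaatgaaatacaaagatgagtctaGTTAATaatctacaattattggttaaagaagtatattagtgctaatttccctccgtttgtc
AFP: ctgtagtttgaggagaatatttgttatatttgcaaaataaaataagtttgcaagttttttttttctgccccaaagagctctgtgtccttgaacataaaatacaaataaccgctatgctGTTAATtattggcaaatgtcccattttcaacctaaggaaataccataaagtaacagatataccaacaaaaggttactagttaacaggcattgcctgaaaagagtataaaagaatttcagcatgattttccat
Each window holds 1 match, from 61 to 56 bases before the start of ALB and from 132 to 127 bases before that of AFP. A match is present in 6.23% of all 35116 windows. Both genes thus carry these letters, while their levels per kilobase differed 1132 ± 410.1-fold.

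Of 17 transcription factors of liver and gut, 5 were expressed, among them HNF4G at 7.33, 7.17 and 5.86 CPM, GATA6 at 6.64, 6.41 and 5.56 CPM, CEBPA at 3.67, 3.97 and 2.96 CPM and NR5A2 at 1.43, 1.54 and 1.29 CPM. HNF4A, the classical hepatocyte factor, was at 0.919, 1.29 and 0.879 CPM, around the threshold, and the ratio of HNF4G to HNF4A per kilobase was 10.2 ± 1.85. FOXA2 had 3, 2 and 4 counts and CDX1 had 0. Apolipoproteins, 9 of 21 expressed, were led per kilobase by APOC1, which was at 37.4, 43.9 and 41.8 CPM, and APOE was at 21.9, 22.7 and 24.2 CPM. The 35 serpins had 9 expressed members, led per kilobase by the intracellular SERPINB1, which was at 71.8, 76.5 and 73.5 CPM. SERPINA1, the main liver serpin, had 1, 0 and 0 counts.

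Of 30 stomach and intestinal genes 14 or 46.7% were expressed, below the 63.9% of protein-coding genes. In the liver list the share was 18.4%, and the difference between these 2 lists was not tested. SPINK1, a secreted trypsin inhibitor overexpressed in a subset of prostate cancers, was at 279.8, 304 and 339 CPM or 208 ± 20.2 RPKM. VIL1, villin of the intestinal brush border, was at 111, 121 and 119.9 CPM, but 44.0% of its exon bases overlap USP37. MUC13, a transmembrane mucin, was at 69.4, 66.7 and 65.3 CPM and AGR2, a disulfide isomerase of mucus-secreting cells, at 61.2, 63.3 and 65.3 CPM. REG4, a lectin of enteroendocrine cells, was at 21.3, 24.4 and 22.8 CPM, DPP4 at 15.1, 15.1 and 15.6 CPM, LGALS4 at 8.53, 13.9 and 13.2 CPM and CDH17, intestinal cadherin, at 11.3, 9.76 and 8.5 CPM. The gastric genes PGC and MUC5AC were at 10.4, 8.33 and 9.08 CPM and 9.04, 8.52 and 8.61 CPM. CEACAM6, TFF2, ANPEP and LYZ were the other expressed members, at 3.32 ± 0.402 CPM, 2.99 ± 0.538 CPM, 2.71 ± 0.233 CPM and 1.18 ± 0.143 CPM. FABP1, FABP2, GKN1, ALPI and OLFM4 were at 0. In the mucin family, 5 of 19 were expressed, and MUC13 made 91.1 ± 0.631% of its level per kilobase.

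**Figure D5:**
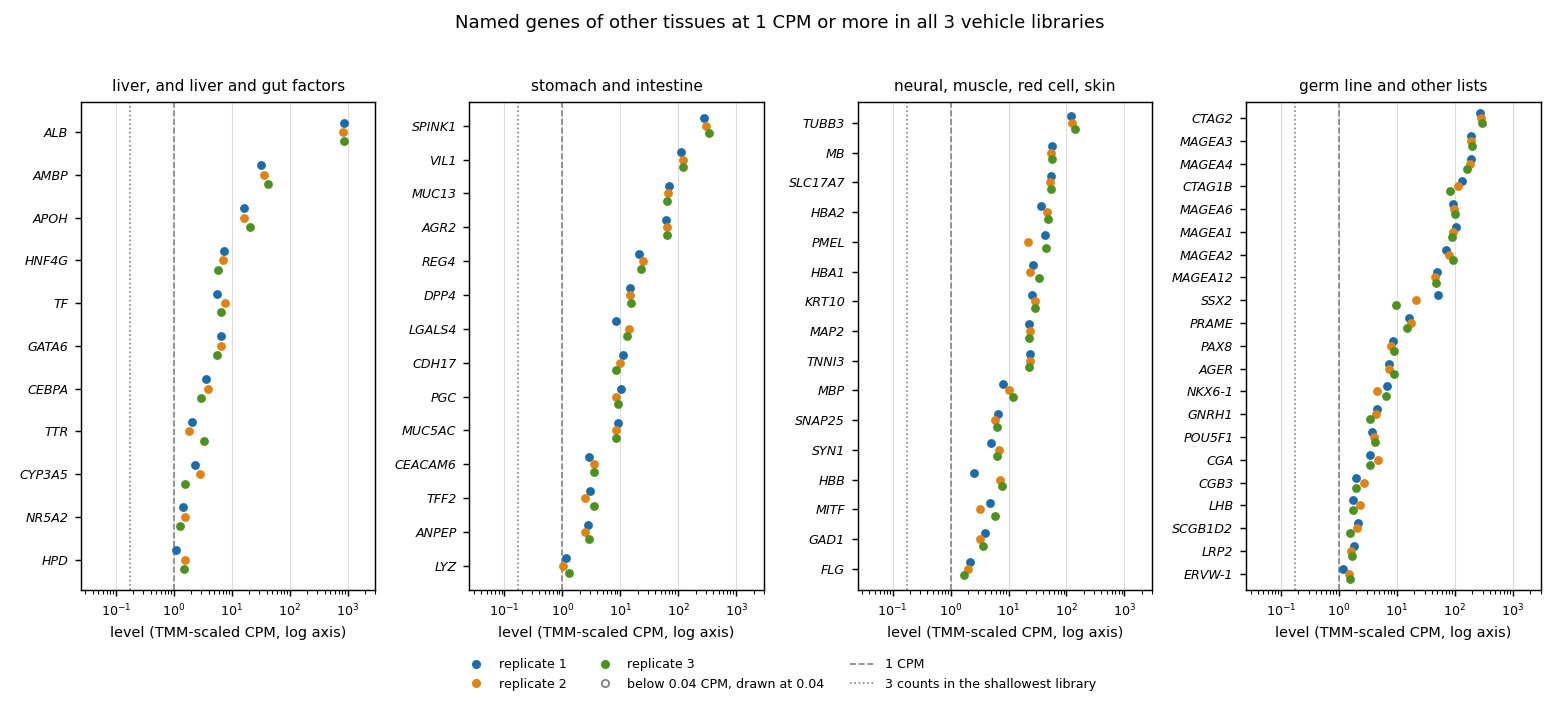
The named genes of the lists for other tissues that reached 1 CPM in all 3 vehicle libraries, as TMM-scaled CPM on a log axis, 1 point per library. ALB lies between 841 and 868 CPM, and PMEL is lower in replicate 2 than in the other libraries.

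Cancer-testis genes, silent in most normal tissues outside the germ line, were on in part. Of 47 germ-line genes 11 were expressed, 3 abundantly, and 25 were silent. CTAG2 was at 268, 285 and 296 CPM, or 285 ± 14.1 RPKM, and CTAG1B, its relative encoding the antigen NY-ESO-1, at 134, 114 and 80.9 CPM. In the MAGEA family on chromosome X, MAGEA3 was at 189, 189 and 197 CPM, MAGEA4 at 190.3, 181 and 164 CPM, MAGEA6 at 94.2, 96.9 and 101 CPM, MAGEA1 at 106, 92.9 and 90.6 CPM, MAGEA2 at 70.2, 80 and 91.4 CPM and MAGEA12 at 48.4, 46.1 and 46.6 CPM. MAGEA8 had 0, 1 and 1 counts, and MAGEB1, MAGEB2, PAGE2 and PAGE5 had 0. PRAME was at 16, 17.7 and 15 CPM and POU5F1 at 4.01 ± 0.252 CPM. CTAG1B has an identical copy, MAGEA3 and MAGEA6 are nearly identical, and MAGEA2 has a near-identical copy, so values of single genes here are uncertain. Genes of meiosis and sperm such as DAZL, SYCP1, PRM1, PRM2, TNP1 and PIWIL1 had 0 counts.

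Neural genes included TUBB3, a neuronal tubulin, at 117, 126 and 143 CPM, SLC17A7, the vesicular glutamate transporter, at 53.6, 52.6 and 55 CPM, and MAP2, a dendritic protein, at 22.7, 23.7 and 22.9 CPM. SLC17A7 differed by less than 3 CPM between libraries. In all 7 of 16 were expressed, the others being MBP at 9.97 ± 1.88 CPM, SNAP25 at 6.27 ± 0.381 CPM, SYN1 at 6.07 ± 0.998 CPM and GAD1 at 3.64 ± 0.376 CPM, and RBFOX3, the neuronal nuclear marker NeuN, had 5, 5 and 4 counts. From the muscle list only MB, myoglobin, and TNNI3, cardiac troponin I, were expressed, at 55.3, 54.8 and 55.8 CPM and 23.2, 23.4 and 22.6 CPM. Both were nearly constant over libraries, and MYH2, MYH7, MYOG, TNNT3 and ACTC1 were at 0.

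Haemoglobin transcripts were present. HBA2 was at 37, 45.9 and 48.2 CPM and HBA1 at 26.8, 23.4 and 33.8 CPM, 2 genes with nearly the same sequence whose split is uncertain, and HBB was at 2.55, 7.02 and 7.79 CPM. GATA1 and ALAS2, genes of red cell formation, had at most 1 count in a library. KRT10 and FLG of skin were at 27.7 ± 1.78 CPM and 1.96 ± 0.238 CPM. Placental and pituitary genes were low, with CGA, the shared hormone alpha subunit, at 3.47, 4.78 and 3.4 CPM, CGB3 at 2.25 ± 0.446 CPM, LHB at 1.94 ± 0.347 CPM, GNRH1 at 4.11 ± 0.616 CPM and ERVW-1 at 1.42 ± 0.215 CPM. 10 of 19 genes in that list had 0 counts, among them PRL, GH1 and CSH1. For CGB3, 47.4% of exon bases overlap ENSG00000267335, so its level is uncertain. NKX6-1, a beta-cell factor, was at 6.79, 4.58 and 6.5 CPM, PAX8, a kidney and thyroid factor, at 8.7, 7.98 and 8.92 CPM, LRP2 at 1.71 ± 0.0725 CPM, AGER at 7.4, 7.37 and 9.02 CPM and SCGB1D2 at 1.91 ± 0.282 CPM. These were the expressed members of the pancreas, kidney, lung and thyroid, and mammary lists, which numbered 1 of 14, 2 of 10, 1 of 11 and 1 of 8.

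Most genes varied little between libraries. The median coefficient of variation was 8.52% over expressed genes and 6.79% over the 9340 genes with a mean of at least 10 CPM, of which 25 reached 30%. The 10 named genes with the largest variation fell into kinds. Overlapping or duplicated loci made up several: GDF1 at 14.7, 85 and 19.9 CPM and CERS1 at 83.2, 36.1 and 91.2 CPM, which share exons, FAM156A at 4.11, 27.7 and 28.3 CPM and FAM156B at 29.1, 9.55 and 8.83 CPM, which are copies, and TICAM2 at 12.7, 5.66 and 12.4 CPM, which overlaps a read-through gene. In the first 2 pairs the partners moved in opposite directions over the libraries, and their single values are uncertain. SSX2, a cancer-testis gene with a near-identical copy, was at 52.2, 21.4 and 9.77 CPM, highest in replicate 1. U2AF1, a splicing factor with a duplicated sequence in the reference, was at 27.3, 67.9 and 44.2 CPM. The remaining 3 were the leukocyte genes IFNG, SLAMF7 (7.56, 8.47 and 15.6 CPM) and SRGN (10.1, 9.93 and 18.9 CPM), the latter 2 highest in replicate 3.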

How the data were processed

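RNA was measured in 3 vehicle libraries of 22Rv1 cells, described as biological triplicates. RNA was extracted with the RNeasy Plus Mini kit and libraries were made with the NEBNext Ultra II RNA kit, per the labels' protocols. The deposited table holds estimated counts per gene from the authors, not rounded and not normalised, and the submitters' processing notes name Salmon 1.3.0, DESeq2 1.30.1 and builds hg38 and GRCh38.p13. No source used here gives the annotation release, the way transcripts were summed to genes or the strand setting. Salmon divides reads among similar transcripts, so the values of near-identical genes are uncertain. The 6 other columns of the table and 15 samples collected at 8 h were not used here. The columns used carry a 2 h tag while the labels give 3 h.

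Libraries were scaled by TMM in edgeR 4.0.16 (R 4.3.3) over the 3 libraries, and CPM used the total times this factor. Gene lengths and positions came from GENCODE 29 on GRCh38, another release of the same build, matched by gene ID without its version. The steps in Python 3.11.15 used pandas 2.3.3, numpy 2.4.6, scipy 1.17.1 and matplotlib 3.10.9, and were tested on simulated data. Total counts of 17565251 to 19830410 per library set the floor of 3 counts at 0.149 to 0.176 CPM. No test was made, since there is 1 group. Upstream sequences are from RefSeq on GRCh38.p14.

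The 47 lists (987 genes) were chosen with earlier results of these data known. Genes were named by a rule: the 20 highest in CPM and the 20 highest in RPKM; from each list its first 6 members, its 5 highest in CPM, for families the 3 highest in RPKM and for other tissues all expressed members; members at 0 counts; the 10 genes with the largest coefficient of variation; the 10 highest long non-coding RNAs; and the albumin family. Outside this rule the following were chosen after their values had been seen: GRHL2, PAX2, PCA3, KLK15, COL1A2, DCN, TERC, HOXA7, HOXA13, HOXC5, SRD5A1, SRD5A2, PKM, PKLR, PFKL, PFKM, PGAM1, PGAM2, LDHA, the CKMT1 pair, HRAS, NRAS, SMARCA4, SMARCA2, WNT10B, CGAS, STING1, ALAS2 and the 40 added lymphocyte and melanocyte genes. The alternatives were library size only, size factors by the relative log method, a total without mitochondrially encoded genes, rounded counts, other thresholds, other transcript lengths and leaving out each replicate. Some genes that the rule names are not reported here, though they are counted in the lists.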

Additional observations from a re-analysis of the deposited data

How the results depend on the processing

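The number of expressed genes, 14563, ranged from 13622 to 16093 over the alternatives tried, and that of expressed protein-coding genes, 12683, from 11543 to 13436. Counting as silent only genes at 0 counts gave 30843 in place of 37851. Without the mitochondrially encoded genes in the total, the share of the 10 most abundant genes was 4.50% and that of the 100 most abundant 18.8%, and all 561 levels checked rose by 1.21 to 1.22 times. With that total, and also at 0.5 CPM, the expressed pancreas genes and the expressed lung and thyroid genes numbered 2 each, and at 0.5 CPM the endothelial genes numbered 2. At 0.5 RPKM the expressed genes numbered 2 for basal markers, 1 for kidney, 2 for skin and melanocytes, 3 for mammary gland, 5 for cadherins, 11 for integrins and 2 for mucins. Leaving out 1 replicate each time gave 1 to 2 expressed pancreas genes and moved 4 levels by more than 1.5 times: FAM156B was at 9.11 CPM, SSX2 at 15.5 CPM and SYCP3 at 1.23 CPM without replicate 1, and GDF1 at 17.2 CPM without replicate 2. Some orders per kilobase reversed with another transcript length, and the values are ratios of the leading gene to the highest other member. With the median length, SPDEF stood at 0.453 to ELF3 among ETS factors and CDH1 at 0.793 to CDH3 among cadherins. KRT18 stood at 0.438 to KRT8 with the median and 0.929 with the longest length, and HLA-C at 0.259 and 0.533 to B2M. No paired analysis was possible because the 3 libraries form 1 group and no groups were compared. Depth limits statements on genes near 3 counts, for which a level of 0 means not detected at this depth.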
